A study of Mus musculus with 18 samples.

Results

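The 10 genes described here, Siglech, Ccr9, Klk1, Pacsin1, Il3ra, Cox6a2, Cd300c, Lag3, Bst2 and Tcf4, are known for their expression in plasmacytoid dendritic cells. They were taken by symbol from the deposited raw-count tables of Smchd1-deleted mouse bone marrow B cells, where each had 1 row, so that they make up 10 of 25965 rows. The cells were sorted from femur marrow as CD45.2+ B220+ Mac1- cells, a gate meant for B cells. Plasmacytoid dendritic cells of the mouse also carry B220, so the gate does not exclude them. The animals were C57BL/6 mice of 12 to 16 months. Every animal, controls included, had 1 Vav.Cre transgene, whose promoter drives Cre across the blood lineages and not in B cells alone. The heterozygous animals were Smchd1[del/+] Vav.Cre[T/+], with 1 deleted and 1 intact Smchd1 allele, and are called het. The del/del animals were Smchd1[del/del] Vav.Cre[T/+], with both alleles deleted. There was no group with both alleles intact or without Cre. There were 5 het and 5 del/del female libraries and 4 het and 4 del/del male libraries. SMCHD1 is a chromatin protein that keeps genes silent, and the comparison asks how each gene differed once the remaining allele was lost.

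Plasmacytoid dendritic cells are a rare bone marrow cell type that recognises viral RNA and DNA in endosomes through TLR7 and TLR9 and then secretes large amounts of type I interferon. They share the B220 form of CD45, E protein dependence and several genes with B cells, from which they differ by the absence of the B cell receptor. The E protein TCF4, also called E2-2, is needed to form and to maintain them. Several of the listed genes serve as identity markers of these cells in the mouse. Bst2, Lag3, Il3ra and Tcf4 are also made by other blood cells and do not mark these cells alone.

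Each library held between 9788112 and 29405395 counted reads. The labels give every library a separate animal number. Smchd1 itself went from 250 to 142 mean CPM, the usual count rate that corrects for the reads of each library (here TMM-scaled), in females and from 294 to 176 in males, with no overlap between genotypes (log2 fold change -0.82, SE 0.0923, and -0.74, SE 0.082; edgeR quasi-likelihood adjusted p = 0.00119 and 0.00888). Of the genes for the signalling chains of the B cell receptor, which mark B cells, Cd79a had group means of 1180 to 1470 CPM and Cd79b of 1760 to 1820 CPM. The 10 genes of plasmacytoid dendritic cells together took 380 to 1350 CPM per library. In male del/del library 4, where this sum was lowest, Tcf4 alone, which does not mark these cells alone, took 182 CPM. In a sorted population measured in bulk, fewer cells of a type and less RNA per cell cannot be told apart.

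The sequence upstream of the RefSeq start site is given for 4 genes whose levels moved together from library to library. They are shown for the letters they hold that are known from binding sites of regulators of plasmacytoid dendritic cells. RefSeq (GRCm38.p6) gave a promoter entry for 7 of the 10 genes. Letters are written 5′ to 3′ on the strand of the gene. Capitals mark letters found on either strand. These are CACCTG and CAGCTG, forms of the E-box bound by E proteins such as TCF4, TGTGGT, the core bound by RUNX factors, and the repeat of interferon-stimulated response elements, which is GAAA, any 2 bases and GAAA again.
Siglech (chr7:55767934-55768177, plus strand): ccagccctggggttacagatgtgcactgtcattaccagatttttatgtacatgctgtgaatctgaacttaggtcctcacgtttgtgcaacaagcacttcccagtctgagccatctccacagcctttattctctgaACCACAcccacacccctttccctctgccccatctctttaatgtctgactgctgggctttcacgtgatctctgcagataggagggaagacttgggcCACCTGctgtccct
Klk1 (chr7:44225110-44225359, plus strand): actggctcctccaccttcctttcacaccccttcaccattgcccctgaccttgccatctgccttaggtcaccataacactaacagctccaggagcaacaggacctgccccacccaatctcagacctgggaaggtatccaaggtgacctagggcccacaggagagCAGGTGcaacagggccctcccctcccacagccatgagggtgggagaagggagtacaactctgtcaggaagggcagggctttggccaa
Cd300c (chr11:114960508-114960757, minus strand): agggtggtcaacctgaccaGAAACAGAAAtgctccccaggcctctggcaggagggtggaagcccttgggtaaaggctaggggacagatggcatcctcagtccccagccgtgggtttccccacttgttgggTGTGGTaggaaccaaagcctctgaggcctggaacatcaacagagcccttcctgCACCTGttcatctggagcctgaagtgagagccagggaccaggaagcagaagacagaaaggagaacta
Bst2 (chr8:71537473-71537722, minus strand): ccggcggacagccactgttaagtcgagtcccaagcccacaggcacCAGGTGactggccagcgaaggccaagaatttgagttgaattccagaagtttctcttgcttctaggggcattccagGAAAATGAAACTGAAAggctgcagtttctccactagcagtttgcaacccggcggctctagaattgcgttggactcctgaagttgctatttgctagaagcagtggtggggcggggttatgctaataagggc

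The E-box CACCTG was present in the 250 bases upstream of the start in 5 of the 7 genes, namely Siglech, Ccr9, Klk1, Cd300c and Bst2. The share among all 32807 such windows was 17.2%. Bst2, which interferon induces, held the interferon response repeat at 2 overlapping positions, and Cd300c held it once, against 2.97% of all windows. TGTGGT was found in Siglech, Pacsin1 and Cd300c, against 14.0% of all windows, and CAGCTG in none of the 7, against 13.0%. The looser form CANNTG, which includes both E-boxes, was found in the same 5 genes as CACCTG, against 66.2% of all windows. The window of Il3ra (chr14:14346245-14346494, plus strand) held none of these letters, 27 CG dinucleotides and 72.4% G and C, and that of Pacsin1 held 26 CG dinucleotides and 70.4% G and C. The windows of Siglech, Ccr9, Klk1 and Cd300c held 0 to 3 CG dinucleotides and 50.4 to 58.8% G and C, and that of Bst2 held 8 and 52.4%. A match of letters is not a bound site, and 220 bases of the Il3ra window are exon in GENCODE M21, which starts the gene further upstream. The windows of Ccr9, Pacsin1 and Cd300c lie inside the GENCODE genes, which start at 123678439, 27655509 and 114969157. Of these windows, 42 bases for Ccr9 and 58 for Pacsin1 are exon. Bases just after the RefSeq start of Cd300c and of Il3ra were not found in a GENCODE transcript of the gene.

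Per kilobase of exon, Bst2 was the most abundant of the 10 in every group and Siglech followed. Bst2 encodes tetherin, a membrane protein that holds budding viruses on the cell and is the target of plasmacytoid dendritic cell antibodies in mice. Its level was 117 ± 30.9 CPM per kilobase in female het and 68.3 ± 4.81 in male het libraries (SD, n = 5 and 4). Siglech, which encodes the sialic acid binding receptor Siglec-H, was at 71.5 ± 23.1 and 25.4 ± 4.2. Cox6a2 (39.0 ± 8.97), Klk1 (21.6 ± 8.33) and Cd300c (13.5 ± 4.09 CPM per kilobase) came next in female het libraries. Of neighbours in this order, Siglech and Cox6a2, and Cox6a2 and Klk1, did not overlap within 1 SD, and all the others did. Below them were Tcf4 (9.46 ± 1.26), Lag3 (7.4 ± 1.12), Ccr9 (6.35 ± 2.08), Il3ra (5.16 ± 0.512) and Pacsin1 (5.0 ± 1.04 CPM per kilobase). The exons of all annotated transcripts were merged, to 10260 bases for Ccr9 and 27382 for Tcf4, so the level per length of these genes is a low estimate.

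**Figure D1:**
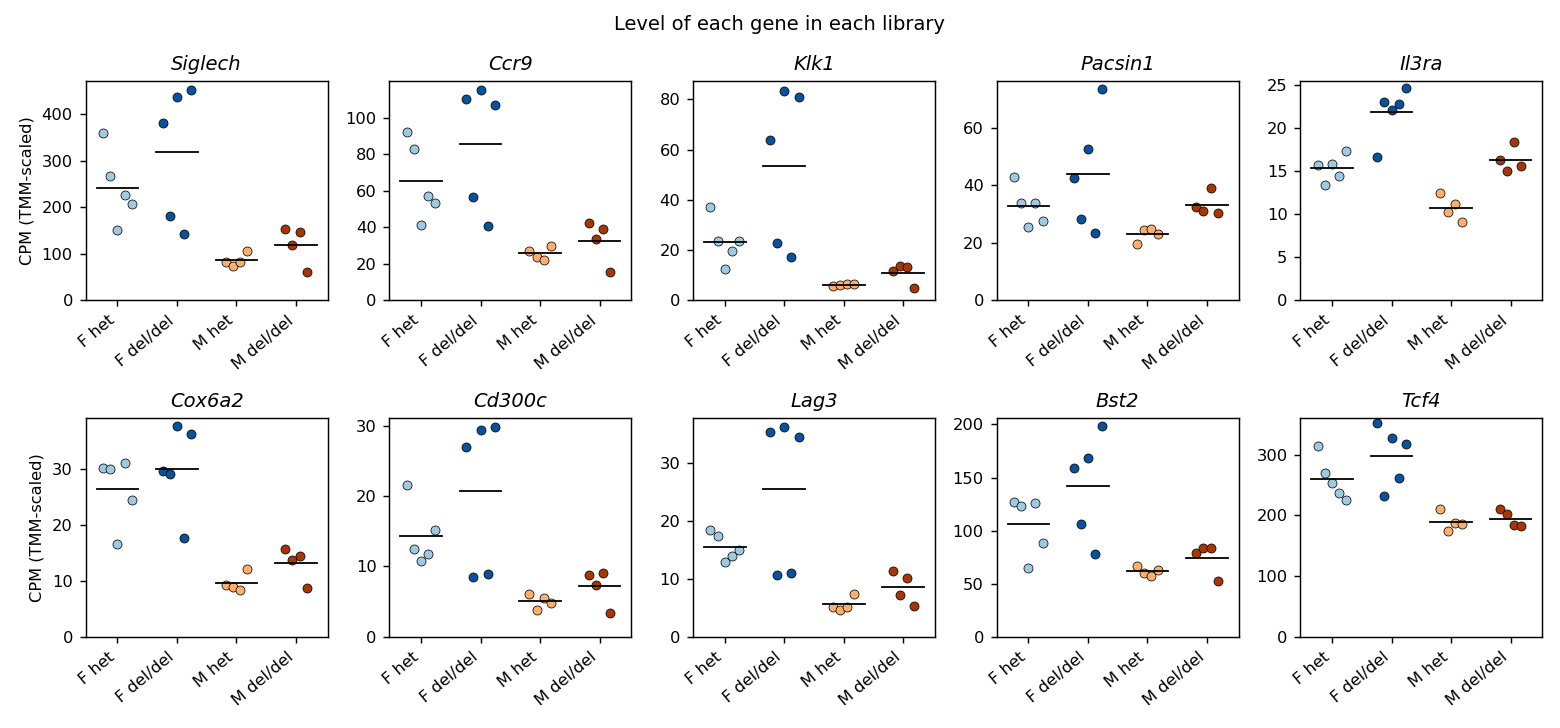
CPM of each of the 10 genes (vertical axes start at 0) in each library, by sex (F, M) and genotype, with the group mean as a bar and libraries in the order of their numbers. For most genes del/del libraries 1, 3 and 5 of the females stand above libraries 2 and 4, and male del/del library 4 stands below the other 3, but Il3ra is above the het range in 4 of 5 female and all 4 male del/del libraries.

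Among the surface receptors, del/del animals of 1 sex differed widely from each other. Siglech (ENSMUSG00000051504, mm10 chromosome 7, 55768178 to 55778925) was at 359, 267, 150, 227 and 206 CPM in female het libraries 1 to 5 and at 382, 181, 438, 143 and 452 CPM in female del/del libraries 1 to 5. Del/del libraries 1, 3 and 5 lay above every het library and del/del library 4 below every one. The log2 fold change of 0.40 (SE 0.314) did not pass the test (edgeR adjusted p = 0.975). In males Siglech was at 81.8, 72.7, 82.7 and 106 CPM in het and at 152, 119, 146 and 61.3 CPM in del/del libraries. Here 3 of 4 del/del libraries lay above and library 4 lay below all het libraries, and the log2 fold change was 0.48 (SE 0.244, edgeR adjusted p = 1).

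Ccr9 (chromosome 9, 123678439 to 123783457), the receptor for the gut and thymus chemokine CCL25, had a similar but not identical order of libraries. It was at 91.8, 82.6, 41.0, 56.9 and 53.2 CPM in female het and 110, 56.3, 115, 40.4 and 107 CPM in female del/del libraries. In males the values were 26.8, 23.6, 22.2 and 29.7 in het and 42.5, 33.4, 38.7 and 15.3 CPM in del/del libraries. Again 3 del/del libraries of each sex were above all het libraries and 1 was below them. The annotated exons of Ccr9 share 1932 bases with a gene on the opposite strand, whose reads cannot be told apart without strand. The same limit applies to 70 bases of Cox6a2, shared with Itgad, and to 46 bases of Il3ra, shared with the antisense gene Gm48860.

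Cd300c (chromosome 11, 114956116 to 114969157), an activating receptor of the CD300 family, was at 21.6, 12.5, 10.7, 11.8 and 15.2 CPM in female het and 27.0, 8.56, 29.4, 8.88 and 29.8 CPM in female del/del libraries. In males it was at 6.07, 3.86, 5.57 and 4.77 CPM in het and 8.78, 7.33, 9.04 and 3.44 CPM in del/del libraries. Female del/del libraries 2 and 4 and male del/del library 4 were below every het library of their sex, and the other del/del libraries were above. The log2 fold changes were 0.52 (SE 0.356) in females and 0.51 (SE 0.286) in males.

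Lag3 (chromosome 6, 124904361 to 124911705) encodes an inhibitory receptor for MHC class II that T cells also use. Female del/del libraries lay at 35.5, 10.7, 36.3, 11.1 and 34.5 CPM and female het libraries at 18.5, 17.5, 12.9, 14.0 and 15 CPM. Male libraries were at 5.14, 4.65, 5.22 and 7.42 CPM in het and 11.3, 7.24, 10.2 and 5.39 CPM in del/del. Of the female del/del values 2 were thus below and 3 above the whole het range, and the log2 fold changes of 0.72 (SE 0.331) and 0.61 (SE 0.247) did not pass the test (edgeR adjusted p = 0.975 and 1).

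Bst2 (chromosome 8, 71534264 to 71537437) was at 127, 123, 65.0, 126 and 88.8 CPM in female het and 159, 106, 168, 77.9 and 199 CPM in female del/del libraries. Male het libraries were at 66.9, 59.8, 56.9 and 63.1 CPM and male del/del libraries at 79.4, 83.3, 83.5 and 52.4 CPM. The first 3 male del/del libraries lay above the het range and library 4 below it. The log2 fold changes were 0.42 (SE 0.245) and 0.28 (SE 0.138).

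Of the genes for proteins inside the cell or secreted from it, Klk1 had the largest fold changes of all 10 genes. Klk1 (ENSMUSG00000063903, chromosome 7, 44225437 to 44229617), a tissue kallikrein and thus a secreted serine protease, was at 37.2, 23.7, 12.5, 19.7 and 23.7 CPM in female het and 63.9, 22.7, 83.4, 17.0 and 81.0 CPM in female del/del libraries. In males it was at 5.66, 5.83, 6.27 and 6.33 CPM in het and at 11.5, 13.5, 13.3 and 4.93 CPM in del/del libraries. The male het values were close together and 3 of 4 del/del values were above all of them. The log2 fold changes were 1.20 (SE 0.419) and 0.85 (SE 0.274), and neither passed the test (edgeR adjusted p = 0.819 and 1). Without male del/del library 4, the lowest of its group for Klk1, the male difference was 1.08 (SE 0.124) and passed (edgeR adjusted p = 0.021). Klk1 passed in only 1 of the 8 male fits that left out a library. Of the words of 50 bases in Klk1 transcripts, 24.0% occur in other kallikrein genes such as Klk1b5, so part of its reads may be shared with them.

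Pacsin1 (chromosome 17, 27655509 to 27711106) encodes a membrane-bending adaptor that plasmacytoid dendritic cells share with neurons. Female libraries overlapped, with het at 42.9, 33.7, 25.4, 33.7 and 27.6 CPM and del/del at 42.3, 28.3, 52.6, 23.2 and 73.5 CPM. In males every del/del library (32.4, 30.9, 39.0 and 30.2 CPM) was above every het library (19.6, 24.3, 24.7 and 23.1 CPM). This includes male del/del library 4, which was below the het range for Siglech. The log2 fold changes were 0.43 (SE 0.268) and 0.53 (SE 0.107). The male value did not pass with edgeR (adjusted p = 0.227) and passed with DESeq2 (adjusted p = 0.00883).

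Cox6a2 (chromosome 7, 128205436 to 128206366) encodes the heart and muscle form of a cytochrome c oxidase subunit, which plasmacytoid dendritic cells also make. Female het libraries were at 30.3, 30, 16.6, 31.1 and 24.5 CPM and del/del libraries at 29.7, 29.1, 37.8, 17.8 and 36.4 CPM, with 2 del/del libraries above the het range. Male het libraries were at 9.36, 9.0, 8.41 and 12.1 CPM and del/del libraries at 15.8, 13.8, 14.4 and 8.83 CPM. Its widely expressed paralog Cox6a1 measured 120 ± 17.5 against 116 ± 21.2 CPM in females (SD, n = 5 each) for a difference of -0.049 in log2 units (SE 0.133), and at 94.4 ± 10.2 and 91.3 ± 2.18 CPM in males (SD, n = 4 each).

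Tcf4 (chromosome 18, 69344146 to 69687967) is the E protein gene. Female het libraries were at 314, 269, 253, 237 and 225 CPM and female del/del libraries at 352, 232, 327, 262 and 318 CPM. Male het libraries were at 210, 175, 187 and 185 CPM and male del/del libraries at 210.4, 201.6, 184.2 and 182.1 CPM. The groups overlapped in both sexes, with log2 fold changes of 0.20 (SE 0.124) and 0.040 (SE 0.0774). The related E protein genes, which B cells need, did not pass the test either, with Tcf3 at -0.063 (SE 0.137) in females and -0.16 (SE 0.111) in males. The inhibitor gene Id2 was at -0.12 (SE 0.186) in females.

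Il3ra (ENSMUSG00000068758, chromosome 14, 14346495 to 14355490) stood apart from the other 9. It encodes the alpha chain of the interleukin-3 receptor, CD123. Female het libraries were at 15.7, 13.4, 15.8, 14.4 and 17.4 CPM and female del/del libraries at 16.6, 23.0, 22.1, 22.8 and 24.7 CPM. The exception among female del/del animals was library 1, within the het range, while libraries 2 and 4, low for Siglech, were high for Il3ra. Male het libraries were at 12.5, 10.2, 11.2 and 9.06 CPM and male del/del libraries at 16.3, 15, 18.4 and 15.6 CPM, with no overlap. The log2 fold changes were 0.51 (SE 0.123) and 0.61 (SE 0.121), and neither passed the test within a sex (edgeR adjusted p = 0.225 and 0.216), while DESeq2 called both (adjusted p = 0.0183 and 0.00503).

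When both sexes were fitted together with sex as a term, a fit added after the values were seen, Il3ra rose by a log2 fold change of 0.55 (SE 0.0832, edgeR adjusted p = 0.00111). It was the only one of the 10 to pass, and 78 of 14017 genes passed in that fit (0.556%). The call held in all 18 fits that left out 1 library (log2 fold change 0.52 to 0.61, edgeR adjusted p from 0.000154 to 0.00342). Klk1 (log2 1.06, SE 0.292), Lag3 (0.68, SE 0.231), Pacsin1 (0.47, SE 0.168) and Bst2 (0.36, SE 0.162) had an unadjusted p under 0.05 there but edgeR adjusted p from 0.166 to 0.700. Klk1 passed in 1 of the 18 fits that left out a library. That fit was without female del/del library 4, the lowest of its group for Klk1 (log2 1.19, SE 0.258, edgeR adjusted p = 0.0408).

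**Figure D2:**
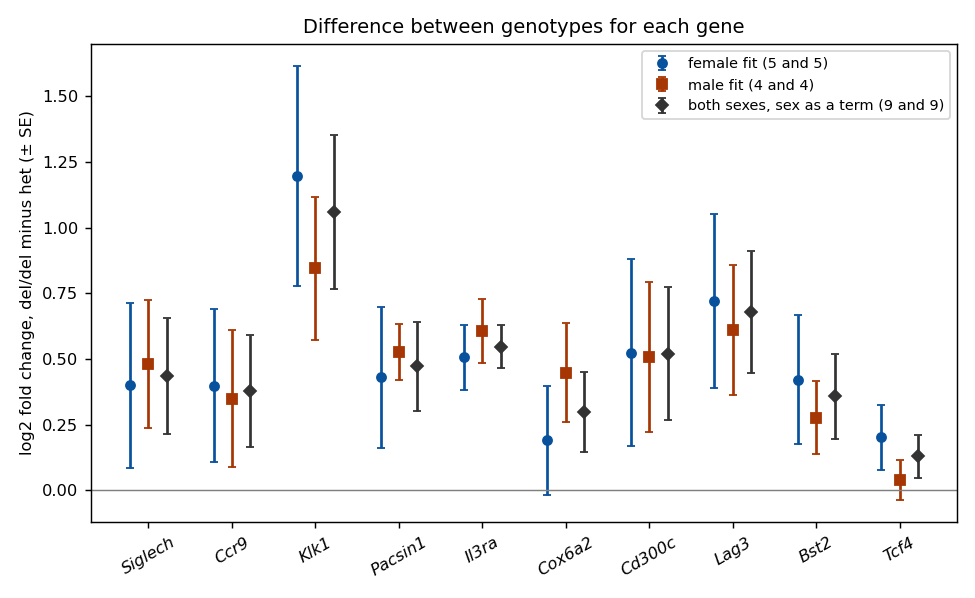
Log2 fold change of del/del minus het (vertical axis) with its SE for each of the 10 genes, from the female fit, the male fit and the fit of both sexes with sex as a term. All 30 estimates are above 0, and the SE of Il3ra (0.123, 0.121 and 0.0832) is small for the size of its difference.

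Within each sex none of the 10 genes passed the test over all genes, in females among 13501 tested genes of which 34 passed (0.252%) and in males among 13413 of which 16 passed (0.119%). All 10 passed the filter on low counts in both sexes. At an unadjusted p under 0.05 there were 3 of 10 in females (Klk1, Il3ra and Lag3) and 5 of 10 in males (Il3ra, Pacsin1, Klk1, Lag3 and Cox6a2), against 4.3% and 3.34% of all tested genes. All 10 estimates were positive in each sex, with a median log2 fold change of 0.43 in females and 0.50 in males, while the median over all tested genes was -0.0044 and 0.0013. Over all tested genes, 48.8% of estimates were positive in females and 50.6% in males. The 10 genes are not separate observations, as pairs without Il3ra had a median r of 0.832 from library to library. Every del/del library was above every het library for 0 of 10 genes in females and for 2 of 10, Pacsin1 and Il3ra, in males. That held for 0.830% of all tested genes in females and 1.44% in males. The authors' deposited table also held none of the 10 at an adjusted p under 0.05 in either sex.

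The difference between genotypes was not found to differ between the sexes for any of the 10. The interaction ranged from -0.24 (SE 0.31) for Cox6a2 to 0.37 (SE 0.602) for Klk1 in log2 units, and edgeR called 0% of 14017 genes in that contrast. Unadjusted p was under 0.05 for 1.45% of those genes and for none of the 10, and DESeq2 called 4 genes.

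The levels themselves were estimated higher in female than in male libraries for all 10 genes. For 9 of the 10 the difference passed the test, with Pacsin1 the exception. This contrast was added after the values were seen, and sex coincides with the table in which a library was deposited, so sex and a batch of that kind cannot be told apart. Among het libraries Klk1 was 3.79-fold higher in females (log2 1.92, SE 0.453, edgeR adjusted p = 0.00608), Siglech 2.76-fold (adjusted p = 0.00529), Cox6a2 2.66-fold (adjusted p = 0.000455) and Tcf4 1.34-fold (adjusted p = 0.0158). Pacsin1 was 1.39-fold higher, which did not pass (edgeR adjusted p = 0.184). The contrast called 22.7% of all tested genes among het and 24.0% among del/del libraries, where the same 9 of 10 passed. Every female library was above every male library for Cox6a2 and Tcf4, which held for 2.43% of all tested genes.

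From library to library, 9 of the 10 genes moved together over all 18 libraries and Il3ra did not, and the values of Pacsin1 and Tcf4 rest more on the female libraries. With the mean of the other members, Pacsin1 had r = 0.94 over the 10 female and 0.311 over the 8 male libraries, and Tcf4 had 0.781 and 0.413. After group means were subtracted, the log2 CPM of Siglech correlated over 18 libraries with that of Ccr9 at Pearson r = 0.975 (Spearman rho = 0.946, permutation p = 2e-05 for r and 4e-05 for rho). For Klk1, Cd300c, Lag3 and Bst2 the r with Siglech was 0.959, 0.923, 0.925 and 0.916 (rho 0.909, 0.899, 0.907 and 0.864, permutation p at most 0.00087 for either). Cox6a2 (r = 0.874, rho = 0.845), Pacsin1 (r = 0.828, rho = 0.787) and Tcf4 (r = 0.719, rho = 0.742) followed, with permutation p at most 0.00959. Il3ra had r = -0.123 and rho = -0.135 (permutation p = 0.73 and 0.628). Adjusted over the 9 relations with Siglech, permutation p was 0.73 for Il3ra and at most 0.0108 for the other 8. Without the 2 libraries farthest from the median of Siglech, r was 0.957 for Ccr9, -0.151 for Il3ra and 0.729 to 0.929 for the others. These libraries share their depth and their sort, so the values describe co-variation of RNA levels only.

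**Figure D3:**
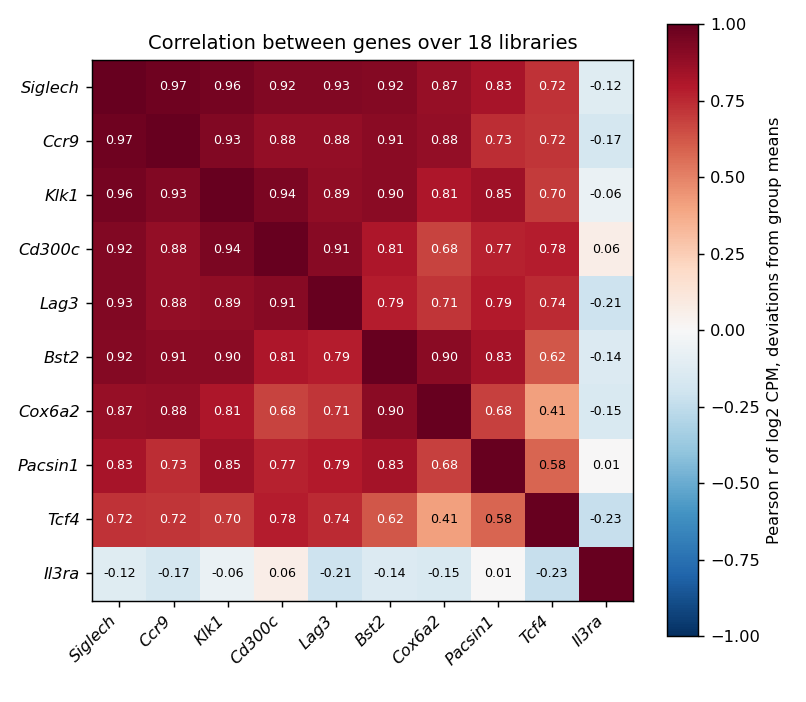
Pearson r between each pair of the 10 genes over 18 libraries, from log2 CPM after the mean of each sex and genotype was subtracted (red positive, blue negative). The 36 pairs without Il3ra range from 0.407 to 0.975 with a median of 0.832, and the 9 pairs with Il3ra range from -0.228 to 0.063.

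The spread within groups was wide for the genes that moved together. The SD of log2 CPM after group means were subtracted was 0.729 for Klk1, 0.638 for Cd300c, 0.575 for Lag3, 0.572 for Siglech and 0.552 for Ccr9, against a median of 0.21 over all tested genes. Il3ra and Tcf4 were below that median, at 0.177 and 0.184. Within the female del/del group the highest library exceeded the lowest 3.15-fold for Siglech and 4.90-fold for Klk1 but 1.49-fold for Il3ra.

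**Figure D4:**
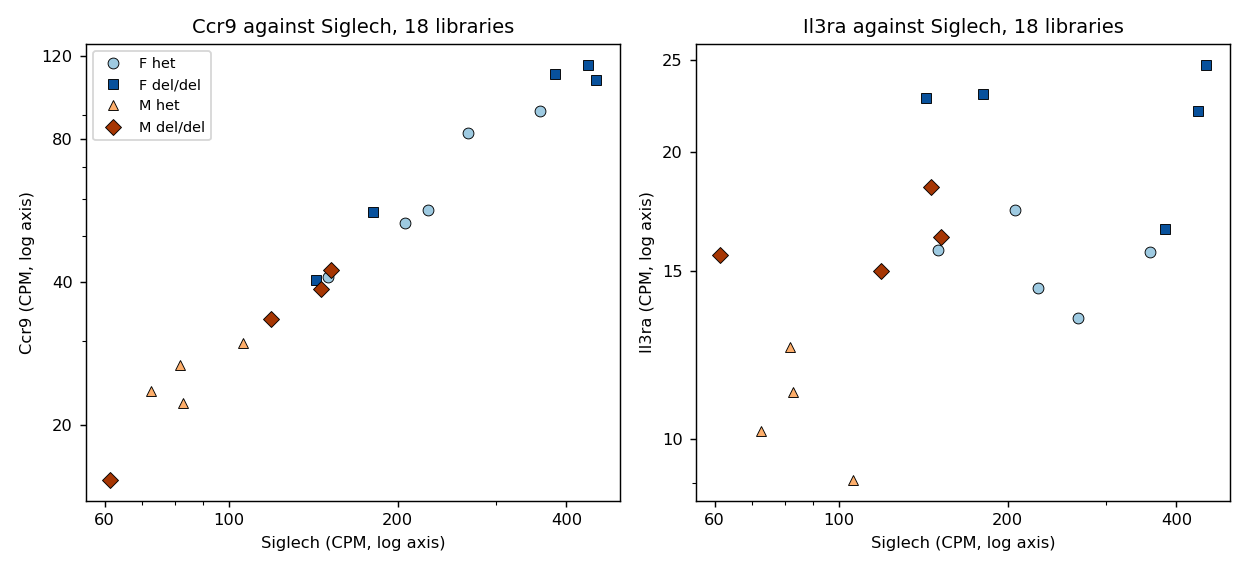
Ccr9 (left) and Il3ra (right) against Siglech in CPM on log axes, 1 point per library, marked by sex (F, M) and genotype. Ccr9 follows Siglech through all groups, while Il3ra lies higher in del/del than in het libraries of the same sex, apart from female del/del library 1, over the whole range of Siglech.

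With the log2 level of Siglech as a covariate, an alternative added after the values were seen, Il3ra kept its difference in the fit of both sexes (log2 0.56, SE 0.0891, edgeR adjusted p = 0.00273), and 0.435% of all tested genes passed there. Among the other genes, the estimates with the covariate were 0.012 (SE 0.12) for Cd300c, -0.021 (SE 0.0675) for Ccr9, 0.045 (SE 0.068) for Tcf4 and 0.095 (SE 0.0813) for Bst2. In the fit of both sexes, no alternative setting, this covariate included, took Lag3 below 0.219, Pacsin1 below 0.221 or Cox6a2 below 0.0865. Klk1 was at 0.47 (SE 0.111, edgeR adjusted p = 0.0832) and, within females, at 0.59 (SE 0.109, edgeR adjusted p = 0.0499). There were 8.33 to 11.5 Klk1 reads per 100 Siglech reads in female het and 11.9 to 19.0 in female del/del libraries, with no overlap. In males the ratios were 5.98 to 8.03 and 7.59 to 11.3 and overlapped. The share of all tested genes whose ratio to Siglech did not overlap between genotypes was not counted.

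A receptor chain that works with the interleukin-3 receptor alpha chain followed the other genes of the list closely. Csf2rb2, the mouse beta chain that pairs only with it, had an r of 0.971 with the mean of the 10 genes over 18 libraries (Spearman rho 0.979). Its r was the third highest among ranked genes outside the list, those tested in both sexes and without a predicted or clone name. Its log2 fold changes were 0.37 (SE 0.306) in females and 0.32 (SE 0.214) in males. The shared beta chain Csf2rb was at 0.21 (SE 0.23) and 0.20 (SE 0.112), and the alpha chain of the GM-CSF receptor, Csf2ra, at 0.35 (SE 0.179) and 0.18 (SE 0.261). None of the 7 tested genes of this receptor family, its kinase and its transcription factors passed the test in either sex. The gene of the ligand, Il3, had 0 reads in every library. The 2 tested neighbours of Il3ra within 250 kb did not pass either, with a median log2 fold change of 0.029 in females and -0.038 in males.

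Genes next to Klk1 also had positive estimates. Within 250 kb, 7 of 8 tested neighbours were positive in females (median 0.58) and 7 of 7 in males (median 0.22), and none passed the test. Klk1b27, a paralog also on the list of further plasmacytoid dendritic cell genes, was at 1.01 (SE 0.375) in females and 1.08 (SE 0.282) in males. The synaptic scaffold gene Shank1 was at 1.29 (SE 0.355, 5.99 to 14.9 mean CPM) and 0.43 (SE 0.165, 16.0 to 21.6). The growth factor gene Clec11a, of low level, was at 1.02 (SE 0.315, 0.748 to 1.56 mean CPM) and 0.22 (SE 0.325, 1.2 to 1.38). Gm10109, a female neighbour that overlaps Klk1, was at 0.845 (SE 0.695, 0.372 to 0.675 mean CPM). Shank1, Clec11a and Gm10109 were named after their values were seen. Around the other 9 genes, medians of tested neighbours lay between -0.104 and 0.196, and Tcf4 had no tested neighbour.

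Most other genes of plasmacytoid dendritic cells had positive estimates, and none passed the test. Of 14 further surface genes 13 were positive in females (median 0.36) and 10 in males (median 0.29), and of 14 further genes for intracellular proteins all 14 were positive in both sexes (medians 0.24 and 0.21). The adhesion gene Cadm1 was at 0.94 (SE 0.405) in females and 1.42 (SE 0.612) in males, and the inhibitory receptor gene Lair1 at 0.46 (SE 0.188) in males. The surface gene of smallest p in males went the other way, Atp1b1, a sodium pump subunit gene, at -0.34 (SE 0.129, edgeR adjusted p = 1). Plac8 was higher in every male del/del library than in every male het library (log2 0.25, SE 0.0861), as were 1.44% of all tested genes.

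Among 12 tested regulators of these cells, 10 were positive in females (median 0.083) and 6 in males (median -0.0037), and none passed. Runx2, which directs their exit from the marrow, was at 91.8 ± 24.0 and 125 ± 45.8 CPM in female het and del/del libraries (SD, n = 5 each) and at 32.2 ± 5.47 and 47.9 ± 12.1 CPM in males (SD, n = 4 each). Its log2 fold changes were 0.44 (SE 0.255) and 0.58 (SE 0.186). The cytokine receptor gene Flt3 was at 0.30 (SE 0.216) and 0.48 (SE 0.135). Spib, which B cells express as well, had a log2 fold change of 0.0075 (SE 0.0963) in females and -0.16 (SE 0.113) in males.

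Of the 13 genes of endosomal nucleic acid sensing none passed in either sex (11 positive and median 0.11 in females, 7 positive and median 0.023 in males). The RNA sensor Tlr7 was at 0.59 (SE 0.277) and 0.47 (SE 0.133), and all its male del/del libraries were above the het libraries. The same held for the kinase gene Irak4 (log2 0.10, SE 0.0627), while for the adaptor gene Traf6 all male del/del libraries were below the het libraries (log2 -0.17, SE 0.0668). In males the pattern of Tlr7 and Irak4 held for 1.44% of all tested genes, and the share with the pattern of Traf6 was not counted. The DNA sensor Tlr9, which B cells make as well, was at 0.24 (SE 0.196) and -0.0039 (SE 0.0646). Of the 9 genes that signal downstream of Siglec-H and CD300 receptors none passed, and the adaptor gene Tyrobp was at 0.38 (SE 0.276) and 0.24 (SE 0.194).

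Interferon genes themselves were all but silent, with 6 reads over 18 libraries on 13 rows of type I interferons. Interferon-stimulated genes, to which Bst2 belongs, had 24 of 25 positive estimates in females (median 0.22), of which Ifi27l2a passed (log2 0.65, SE 0.112, edgeR adjusted p = 0.0301), and 14 of 25 in males (median 0.036), of which none passed. Their mean level had an r of 0.189 with the mean of the 10 genes over 18 libraries.

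Likeness of pattern was ranked among genes tested in both sexes and without a predicted or clone name. The 10 ranked genes outside the list nearest to its mean over 18 libraries were Lair1, Ppfia4, Csf2rb2, Ctsl, P2ry13, Tbc1d8, Paqr5, Prss30, Clec10a and Cd68, with r from 0.979 for Lair1 to 0.946 for Cd68. Their Spearman rho ranged from 0.926 to 0.979. These values are descriptions over libraries that share a sort, and no p is given for a ranking chosen from all genes. The genes nearest to Il3ra were others, led by Tchp (r = 0.886) and Fuz (r = 0.868), whose log2 fold changes between genotypes were 0.17 and 0.16 in females and 0.017 and 0.085 in males.

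Markers of other cells moved with these genes in part. The lists named here were scored as the mean log2 CPM of their tested genes, and their r with the mean of the 10 genes is over 18 libraries after group means were subtracted. Conventional dendritic cell genes had r = 0.88, with 8 of 9 positive in females (median 0.31), 7 of 8 in males (median 0.25) and no listed gene at 0 throughout. Their summed level was 402 to 578 CPM in female het, 432 to 771 in female del/del, 520 to 631 in male het and 530 to 750 CPM in male del/del libraries. Of the tested genes of this list, Cst3 (176 CPM), Ccr7 (122 CPM) and Cd83 (87.9 CPM) had the highest means in female het libraries. Among their defining genes, Clec9a was at 7.17 ± 3.52 and 11.5 ± 7.52 CPM in female het and del/del libraries (SD, n = 5 each). Zbtb46 was at 0.817 and 1.36 CPM there and Xcr1 at 0.498 and 0.424 CPM (log2 -0.246, SE 0.566). The summed level thus rests little on these defining genes. Myeloid genes had r = 0.567 (10 of 13 positive in females and 13 of 13 in males, summed levels 1480 to 3500 against 986 to 4980 CPM and 1760 to 3390 against 1840 to 5820 CPM) and plasma cell genes, which can include Bst2, r = 0.53 (6 of 7 and 2 of 7). T and NK cell genes, which bear on Lag3, had 5 of 14 and 3 of 14 positive, medians of -0.229 in both sexes, and r = 0.528, which was 0.743 over female and -0.0877 over male libraries. Mature B cell genes had r = 0.581 (0.64 over female and 0.255 over male libraries), with 11 of 11 positive in females (median 0.19) and 9 of 11 in males (median 0.067). Their summed level was 1930 to 2730 CPM in female het, 1750 to 3820 in female del/del, 3810 to 4650 in male het and 3900 to 5130 CPM in male del/del libraries.

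Proliferation genes went the other way in females, with r = -0.88 over the 10 female libraries and 0.323 over the 8 male ones, and 0 of 18 positive in either sex (medians -0.22 and -0.12). Pro-B and pre-B cell genes had 0 of 11 positive in either sex (medians -0.14 and -0.29), and erythroid genes 1 of 11 in either sex (medians -0.77 and -0.66). No gene of these lists passed the test, and their part in the levels of plasmacytoid dendritic cell genes was not tested.

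The nuclear RNA Malat1, whose share can follow RNA quality, was at 1090 ± 306 and 1480 ± 413 CPM in female het and del/del libraries (SD, n = 5 each; log2 0.45, SE 0.215). When log2 Malat1 CPM entered the fit, the median of the 10 genes was 0.076 in females, Siglech was at -0.093 (SE 0.321) and Cd300c at -0.17 (SE 0.306), while Il3ra was at 0.46 (SE 0.137) there and passed in the fit of both sexes (log2 0.50, SE 0.0847, edgeR adjusted p = 0.00411). In males Malat1 was at 783 ± 324 and 821 ± 159 CPM (SD, n = 4 each) and the median with the covariate was 0.44.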

How the data were processed

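RNA of sorted CD45.2+ B220+ Mac1- marrow cells was sequenced as polyA libraries made with an Illumina TruSeq kit, per the labels' protocols. The authors deposited raw counts per gene, with females and males in separate tables. The tools named were Trim Galore, TopHat, bcl2fastq, FastQC and edgeR 3.32.1, with mm10 and GRCm38 as builds, per the submitters' processing notes. How reads were counted, with which annotation and whether by strand, is not given in the sources used here. The 4 columns of group means, a signal that the authors averaged over libraries, were not used. Per the file headers, the authors also deposited log2 fold changes, F scores and p-values for each gene, quoted only as the authors' deposited table. Rows without an identifier (56 of 25965, at most 0.0846% of counts) carried a symbol and were kept.

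The members and the other gene lists were chosen with earlier results of these data known. Counts were tested in R 4.3.3 with edgeR 4.0.16: filterByExpr (minimum count 10, minimum total 15), TMM factors and, within each sex, quasi-likelihood tests between genotypes, with Benjamini-Hochberg adjustment over all tested genes and a threshold of 0.05. The SE is the log2 fold change divided by the square root of F. The interaction and the contrasts between sexes used all 18 libraries. CPM are TMM-scaled. Correlations used log2 CPM with a prior count of 2, and permutations, two-sided, reassigned libraries within a group 100000 times. The test was checked on simulated counts with larger differences than most of the 10 genes had and with the same dispersion for every gene. That check does not show what the test can detect in these genes. Alternatives were RLE and upper-quartile factors, no filter, DESeq2 1.42.0, limma 3.58.1 voom, all libraries in 1 fit, leaving out each library, Malat1 or Siglech as a covariate, and pairs of nearest animal number. The labels state no pairs. Deviations of such pairs correlated at 0.105 to 0.33 in the 4 male pairs and above 0.1 in 3 of 5 female pairs over the genes tested in that sex, and above 0.1 in 3 of 4 male pairs over genes tested in the 18-library fit. Named genes were the 10 members, Smchd1, Malat1, up to 4 genes of each list by smallest p, named partners and paralogs, and the 10 genes of highest likeness. Exon lengths and shared words came from GENCODE M21, and promoters from RefSeq GRCm38.p6. The summed levels of the B cell identity list are not reported here.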

Additional observations from a re-analysis of the deposited data

Results flagged for a closer look

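Of 40 combinations of a gene and a group, 1 held a library far from the others of its group, where chance gives about 1 in 20. Bst2 was at 52.4 CPM in male del/del library 4, against 79.4 to 83.5 CPM in the other 3, a gap of 0.868 of the range of the group. Siglech (61.3 CPM), Ccr9 (15.3 CPM), Klk1 (4.93 CPM) and Cd300c (3.44 CPM) were also lowest of their group in that library, while Pacsin1 (30.2 CPM) and Il3ra (15.6 CPM) stayed above every male het library.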

How the results depend on the processing

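Among other settings (RLE or upper-quartile factors, no filter, voom, DESeq2, all 18 libraries, covariates, block), 249 values for single genes kept their direction and side of the threshold, 4 passed it newly and 4 reversed. DESeq2 called 1 of the 10 genes in females and 2 in males, and 92, 49 and 141 genes in all in females, males and both sexes, against 34, 16 and 78 with edgeR. A fit of all 18 libraries called 58 genes in the female comparison. With the Malat1 covariate, Siglech was at -0.0926 and Cd300c at -0.173 in females. With the Siglech covariate, Ccr9 was at -0.174 in males and -0.0206 in both sexes, 1 of the 10 genes passed in females, 5 genes in all passed in males, and the male median was 0.157 against 0.495. The cause of these shifts was not tested. Of the 10 genes most like the mean of the list, 4 were shared with the ranking in female libraries, 2 with that in male libraries and 6 with that by Spearman rho. Leaving out 1 library each, Tcf4 in males ranged from -0.000483 to 0.0855 and was negative without male del/del library 1. The number of the 10 genes called ranged from 0 to 1 in males, with Klk1 called without male del/del library 4, and from 1 to 2 in both sexes. All genes called in males ranged from 5 to 22, falling to 5 without male het library 1 or male del/del library 3, to 6 without male del/del library 1, to 9 without male het library 4 and to 10 without male del/del library 4. The labels give no shared replicate numbers. A block of nearest animal numbers, used as a pairing, changed no call of the 10 genes (Il3ra 0.50 in females and 0.61 in males, edgeR adjusted p = 0.31 and 0.175) and called 23 and 13 genes in all. With 4 or 5 animals a group and wide spread among del/del animals, differences of the observed size in most of these genes did not pass the test.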
